A study of Mus musculus with 10 samples.

Results

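Committed oligodendrocyte precursors are the short-lived cells that stand between the dividing oligodendrocyte precursor and the myelin-forming oligodendrocyte. Here they were chosen cell by cell from transcripts counted in the medial prefrontal cortex of the mouse. A barcode was taken when at least 500 genes and at most 15% mitochondrial counts were seen, when Enpp6, Bmp4, Gpr17 and Bcas1 together held at least 4 unique molecular identifiers (UMIs, 1 per captured RNA molecule), and when at least 1 of these came from Enpp6 or Bmp4. It also had to hold 0 UMIs of Pdgfra, at most 1 of Opalin and Mog, and at most 1 of the neuronal, astrocyte and endothelial genes Slc17a7, Gad1, Gad2, Gja1 and Cldn5. This gave 161 committed precursors among 48816 kept barcodes, out of 64937 deposited.

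The tissue came from male C57BL/6N mice over 2 months old, taken 1 day after the last tube test of social dominance. The design compared dominant mice (rank 1, 5 libraries) with subordinate mice (rank 4, 5 libraries); no drug or genetic change is named in the labels for either group. Each library pooled the punches of 2 or 3 mice, so the library was the replicate and single animals could not be separated. Cells were released with papain and loaded on 10x Genomics droplets. A library held between 4442750 and 29278466 UMIs and gave between 8 and 35 committed precursors.

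In the adult brain, oligodendrocyte precursors carry the growth factor receptor Pdgfra and the proteoglycan Cspg4 and keep dividing. Some leave this state, lose Pdgfra, and briefly switch on genes such as Enpp6, Bmp4, Gpr17 and Bcas1 before they begin to make myelin. Enpp6 is a choline phosphodiesterase, Bmp4 a secreted signalling protein, Gpr17 a G protein-coupled receptor, and Bcas1 a protein of early myelinating cells. Myelin itself is built from proteins such as Mbp and Cnp and from glycolipids that Ugt8a, Fa2h and Gal3st1 help to make.

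The genes of the rule describe how the cells were picked and are not a result. Gpr17 had a UMI in 149 of the 161 cells, Enpp6 in 130, Bcas1 in 127 and Bmp4 in 115. The cells overlapped only in part in what they carried. Enpp6 and Bmp4 were found together in 84 cells, Enpp6 without Bmp4 in 46 and Bmp4 without Enpp6 in 31. All 4 genes were found in 66 cells, 3 of them in 69, 2 in 24 and 1 in 2. The 18 cells just inside the threshold, with 4 marker UMIs, held 984 CPM of Fyn (counts scaled to a common library total) and 3033 of Mbp, and the 23 barcodes just outside it, with 3, held 1086 and 3521. For Neu4 the values were 246 CPM inside, from 6 UMIs, and 428 outside, from 13.

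The label was checked against Neu4, a sialidase of early oligodendrocyte-lineage cells that is among the markers of the population but not in the rule. A Neu4 UMI was present in 106 of 161 committed precursors (65.8%, exact 95% interval 58.0 to 73.1, counting error only). In Pdgfra precursors the share was 44.5%, in oligodendrocytes 0.639%, and in endothelial cells, which should lack the gene and so show the level of free RNA, 0.600%. The median depth was 1858 UMIs in committed precursors, 1782 in Pdgfra precursors, 1431 in oligodendrocytes and 1295 in endothelial cells. In rank 1 libraries 1 to 5, committed precursors held 972, 1401, 1138, 740 and 491 CPM of Neu4. In rank 4 libraries 1 to 5 they held 661, 1536, 1029, 603 and 482 CPM. The highest library of each rank was replicate 2, and the ranks overlapped over most of their range.

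Markers of other cells differed in level and in how they spread over the cells. The 10 endothelial markers summed to between 335 and 916 CPM in committed precursors, against 22590 to 41640 in the endothelial cells, and Pecam1 and Cdh5 were at 0. Of the 10 pericyte and muscle markers, Kcnj8, Atp13a5, Acta2 and Tagln were at 0, and of the 8 fibroblast markers Lum, Col1a1, Col1a2 and Col3a1 were at 0. All 10 neuronal markers had a UMI and summed to 211 to 2210 CPM, while endothelial cells held 257 to 3091. All 10 astrocyte markers were seen, at 370 to 3808 CPM, and all 10 microglial ones, at 82.2 to 2956 CPM. In rank 1 replicate 3, 1 cell of 9 held 78 of the 87 astrocyte-marker UMIs, and in rank 4 replicate 1, 1 cell of 15 held 126 of the 152 microglial ones. Haemoglobin genes with Alas2 summed to 0 to 21610 CPM, the highest in rank 4 replicate 1, and to 5232 to 38200 CPM in endothelial cells. In the gene tests described further on, 4 of 5 astrocyte markers tested (Aldoc, Slc1a2, Slc1a3 and Clu) and 0 of 5 neuronal ones were lower than in Pdgfra precursors, where 13.5% of all genes were; Aldoc did not pass at 1500 UMIs a cell (-0.69, edgeR adjusted p = 0.0724) or with all 10 libraries (-0.42, adjusted p = 0.184). Against oligodendrocytes 2 of 4 astrocyte markers (Aldoc and Slc1a2) and 4 of 5 neuronal ones (Snap25, Syt1, Camk2a and Stmn2) were lower, where 22.7% of all genes were. Each of these 4 neuronal calls ended in some alternative, and leaving out any 1 of the 8 libraries tested other than rank 4 replicate 4 ended at least 1 of them. Without rank 4 replicate 5, Stmn2 was -0.32 (edgeR adjusted p = 0.417) and Snap25 -0.40 (0.168), without rank 4 replicate 3 Camk2a was -0.58 (0.0932), and without rank 4 replicate 1 Syt1 was -0.65 (0.0815). The part of either in the other differences was not tested. Scrublet called 2 of the 161 cells doublets. Its own threshold called 0% of barcodes in rank 1 replicate 1 and rank 4 replicate 1, where a score threshold of 0.245 was used in its place. No committed precursor shared its barcode with a committed precursor of another library, and pairs of libraries shared at most 42 barcodes.

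Committed precursors made up between 0.186% and 1.03% of kept barcodes. In rank 1 libraries 1 to 5 the share was 0.203%, 0.508%, 0.615%, 0.396% and 0.331%, and in rank 4 libraries it was 0.305%, 1.03%, 0.479%, 0.186% and 0.255%. The means were 0.411% ± 0.159 in rank 1 and 0.452% ± 0.343 in rank 4 (SD, n = 5 each), a difference below the spread between libraries (two-sided exact permutation p = 0.873, 0.929 adjusted over 3 such comparisons). Within the oligodendrocyte lineage, taken as committed precursors plus Pdgfra precursors plus oligodendrocytes, the share was 6.71% ± 2.73 in rank 1 and 6.95% ± 3.37 in rank 4 (n = 5 each, exact permutation p = 0.929, also 0.929 adjusted). Per 100 Pdgfra precursors there were 11.5 ± 5.63 committed precursors in rank 1 and 12.9 ± 5.73 in rank 4 (n = 5 each, exact permutation p = 0.706, 0.929 adjusted). The sign of the first 2 differences rested on single libraries. Without rank 4 replicate 2, rank 1 was higher by 0.104 percentage points of kept barcodes and by 1.26 points of the lineage. Without rank 1 replicate 1 it was higher by 0.0106 and 0.520 points. Within the 4 libraries of the later software version, rank 1 was higher by 0.143 points of kept barcodes, and within the 6 of the earlier version the difference was -0.164 points.

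**Figure D1:**
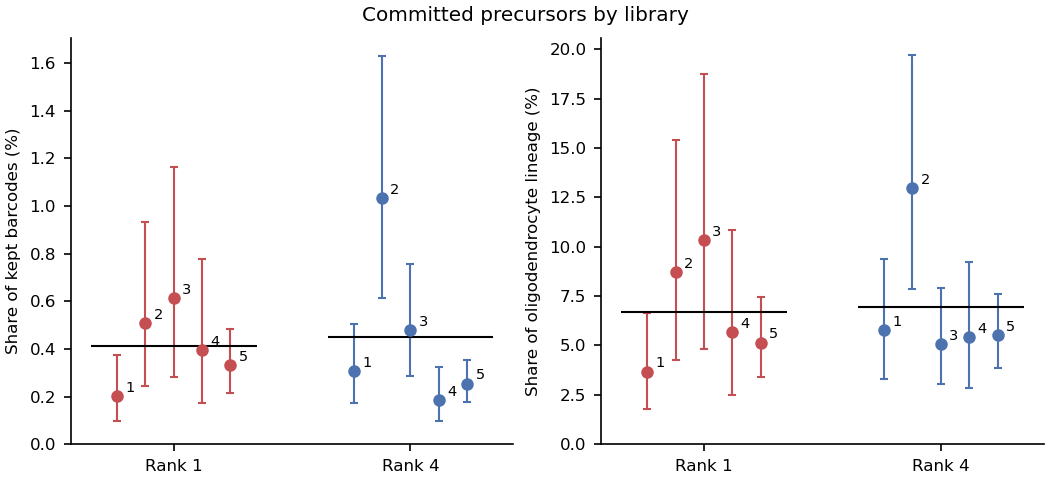
Share of committed precursors among kept barcodes (left, %) and among oligodendrocyte-lineage barcodes (right, %) in each library, numbered by replicate, with exact 95% intervals and the rank mean as a line. Rank 4 replicate 2 stands highest in both panels, at 1.03% and 12.95%, and the other libraries of both ranks overlap.

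Gene by gene, committed precursors were set against both neighbours in the lineage within the 8 libraries that held at least 10 of them. UMIs were summed per library and class and tested with edgeR's quasi-likelihood test with the library as a block, and p-values were adjusted by the Benjamini-Hochberg method over all genes tested. The 14 genes read by any class rule, the 12 named above with Dcn and Col1a1, were left out, since they chose the cells. Against Pdgfra precursors, 546 of 2060 genes passed an adjusted p of 0.05 (26.5%), 268 higher in committed precursors (13%) and 278 lower (13.5%). Against oligodendrocytes 406 of 1008 passed (40.3%), 177 higher (17.6%) and 229 lower (22.7%). Of the list and named genes that passed, 81 of 100 against Pdgfra precursors and 71 of 94 against oligodendrocytes also passed in every alternative that tested them. A gene was tested when enough libraries of either class held it, so a list member that was low in one class was tested only where it was high in the other; counts over a list describe its tested members, not the list, and support no direction. These 2 comparisons share the committed precursor libraries, so their values are given side by side and not correlated. UMI sums say how much of the captured RNA a gene held, so less RNA of a gene and more of others cannot be told apart.

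Some genes stood above both neighbours. Genes higher in committed precursors in both comparisons were ordered by the smaller of their 2 differences, with symbols that start with Gm or end in Rik set aside, and Fyn came first. Fyn is a Src-family kinase that acts in the morphological maturation of oligodendrocytes. Across the 10 libraries it ranged from 1809 to 3286 CPM in committed precursors (median 2361), from 118 to 306 in Pdgfra precursors (median 197) and from 0 to 87.7 in oligodendrocytes (median 33.0). The ranges of the 3 classes did not overlap. The log2 difference was 3.69 (SE 0.16, edgeR adjusted p = 6.14e-27) from Pdgfra precursors and 5.51 (SE 0.27, adjusted p = 7.41e-14) from oligodendrocytes. Oligodendrocytes averaged 38.7 CPM, below the 54.9 CPM of endothelial cells. Whether the endothelial value is free RNA or Fyn made by those cells was not tested. A Fyn UMI was seen in 143 of 161 committed precursors, and in 9.54% of endothelial cells.

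The others were a mixed group by function. Mpzl1, a cell-surface glycoprotein related to the myelin protein P0, averaged 2147 ± 1251 CPM (SD, n = 8 libraries) against 177 ± 73.1 in Pdgfra precursors and 63.0 ± 37.4 in oligodendrocytes. Endothelial cells averaged 350 CPM of Mpzl1 in these libraries, above both neighbours. Sirt2, a deacetylase abundant in myelin-forming cells, averaged 4058 ± 1641 against 449 ± 150 and 854 ± 340 CPM. Cd9, a tetraspanin, averaged 4996 ± 3063 against 714 ± 293 and 1054 ± 567 CPM. Tmem108, Epb41l2, Pdcd4, Col9a3, Tns3, Gnb4 and Dusp15 completed the list with averages between 401 and 839 CPM in committed precursors and at most 113 CPM in either neighbour. Epb41l2 encodes a membrane skeleton protein, Tns3 a focal adhesion protein that marks early oligodendrocytes, Pdcd4 an inhibitor of translation, Col9a3 a collagen chain and Gnb4 a G protein subunit. Their log2 differences were 2.31 (Gnb4) to 4.09 (Epb41l2) from Pdgfra precursors and 2.19 (Dusp15) to 4.70 (Tmem108) from oligodendrocytes. Lims2, an adaptor of integrin signalling, also rose in both (2.15 and 4.12), but its gene overlaps Gpr17 on the opposite strand. Gpr17 chose the cells, and no strand setting is stated. How far reads of Gpr17 were counted as Lims2 in committed precursors was not tested. In endothelial cells Lims2 averaged 122 CPM and Gpr17 5.83 over the 10 libraries. Among the largest rises over Pdgfra precursors were also Chn2 (4.52), a Rac GTPase-activating protein, Bfsp2 (3.93), an intermediate filament protein, and Lgi3 (3.62), and among those over oligodendrocytes Ppfibp1 (5.49) and the glutamate transporter Slc1a1 (4.4).

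A list of genes published for committed precursors was read with the same fits. It was assembled from general knowledge, not from these cells, and of its 25 genes 24 were in the shared gene lists. Against Pdgfra precursors 15 of its members had enough counts, and against oligodendrocytes 13. Some had them through committed precursors, such as 9630013A20Rik with 11 UMIs in Pdgfra precursors and Neu4 with 7 in oligodendrocytes. No count by direction is therefore given. Neu4 differed by 1.16 (SE 0.15, edgeR adjusted p = 6.21e-09) from Pdgfra precursors and by 6.95 (SE 0.28, adjusted p = 4.65e-15) from oligodendrocytes. Itpr2, an intracellular calcium release channel, differed by 1.75 and 4.44. The long noncoding RNA 9630013A20Rik held 430 ± 282 CPM in committed precursors, 3.30 ± 4.70 in Pdgfra precursors and 24.7 ± 29.6 in oligodendrocytes (SD, n = 8 libraries). It was detected in 65 of 161 committed precursors and in 0.300% of endothelial cells. Bcan, a proteoglycan, and Dock9 did not pass against Pdgfra precursors. Members with too few counts for a test did not all lie the same way: over the 10 libraries Kif21a averaged 91.8 CPM in committed precursors and 215 in oligodendrocytes, and Chst5 29.5 CPM against 81.9 in Pdgfra precursors.

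**Figure D2:**
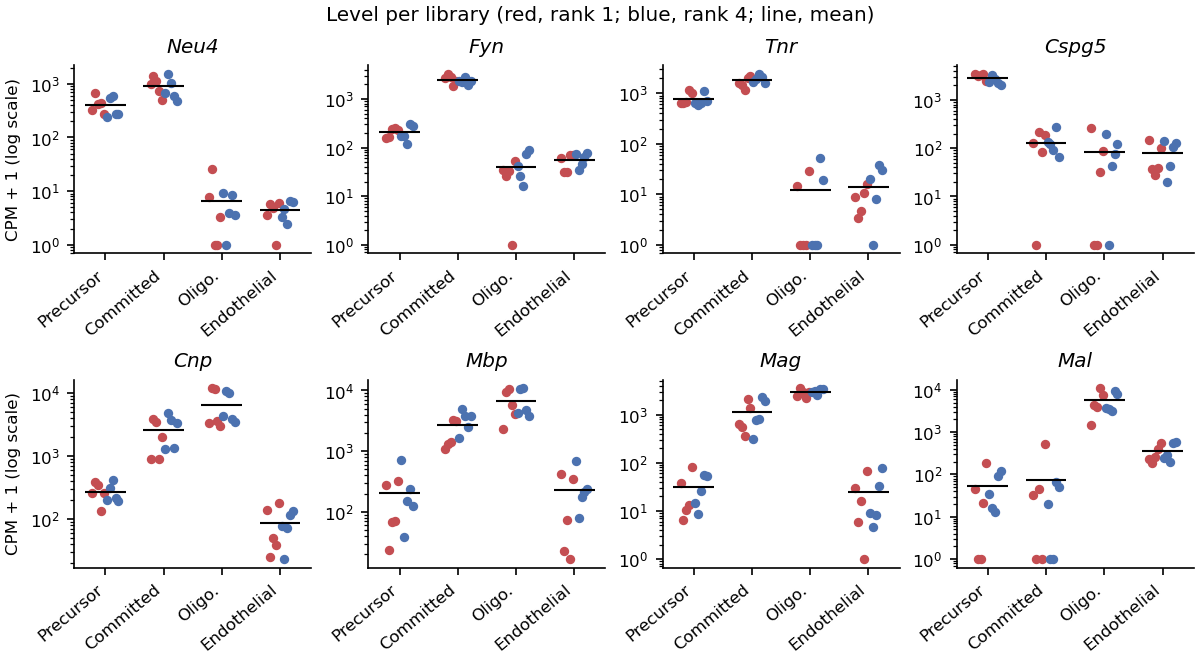
CPM + 1 (log scale) of 8 genes in each of the 10 libraries, for Pdgfra precursors, committed precursors, oligodendrocytes and endothelial cells; red points are rank 1, blue points rank 4 and lines the mean. Fyn is highest in committed precursors, Neu4 and Tnr lie far above oligodendrocytes, Cspg5 is near the endothelial level, and Cnp, Mbp and Mag lie between both neighbours while Mal does not.

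Of 23 precursor genes tested against Pdgfra precursors, 16 were lower, 2 higher and 5 did not pass (median -1.72), beside 13.5% of all genes lower, 13% higher and a median of -0.03. Cspg5, a neuregulin-like proteoglycan, ranged from 0 to 268 CPM over the 10 libraries of committed precursors (median 123) and from 1992 to 3463 in Pdgfra precursors (median 2943). The ranges did not meet, and the endothelial mean was 88.8 CPM, so what was left lay near the level of free RNA. Its log2 difference was -4.44 (SE 0.21, edgeR adjusted p = 1.45e-25). Cspg4 (-2.97), Ednrb (-3.55), an endothelin receptor, Ptprz1 (-2.19), a receptor phosphatase, and Matn4 (-2.02) were lower too.

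Other precursor genes were not lower. Tnr, the extracellular matrix glycoprotein tenascin-R, ranged from 1182 to 2422 CPM in committed precursors (median 1790) and from 579 to 1144 in Pdgfra precursors (median 656), without overlap (1.34, SE 0.14, edgeR adjusted p = 4.27e-12). Sox6 was higher by 0.53 (SE 0.18, edgeR adjusted p = 0.0229), but this call ended in several alternatives: it was 0.43 without rank 1 replicate 1 (adjusted p = 0.123), 0.49 without rank 4 replicate 1, 0.50 without rank 4 replicate 3 and 0.22 with no filter on low counts (adjusted p = 0.692). Vcan, Bcan, Gpr37l1, Scrg1 and Sox5 did not pass; Gpr37l1 averaged 622 ± 152 CPM against 625 ± 143 (SD, n = 8). Against oligodendrocytes 10 of the 23 precursor genes had enough counts, and since genes low in both classes dropped out no count is given. Sox6 (6.93), Vcan (6.89) and Tnr (6.67) were the farthest apart. Oligodendrocytes held 0.894 CPM of Sox6 and 2.44 of Vcan, below the endothelial means of 4.27 and 5.06. The differences of Sox6 and Vcan are therefore set by a level near that of free RNA.

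Beyond that list, the genes with the largest falls from Pdgfra precursors included Ccnd1, the cyclin of the first growth phase of the cycle, at 11.6 ± 18.1 CPM against 378 ± 76.5 (log2 -4.57, SE 0.38, edgeR adjusted p = 2.6e-15). It was the only one of 20 cell cycle genes with enough counts for the test. An Mki67 UMI, the usual mark of dividing cells, was seen in 3 of 161 committed precursors (1.86%, exact 95% interval 0.386 to 5.35) and in 2.38% of Pdgfra precursors; this difference was not tested. In endothelial cells it was 0.270%. The membrane protease Mmp15 (-5.50), the transcription factor Etv5 (-5.11), Tacc2 (-4.37), Cdo1 (-4.12), the retinoid carrier Rlbp1 (-3.85), the growth factor Mdk (-3.58) and the glypican Gpc5 (-3.57) were also lower. Each averaged at most 30.5 CPM in committed precursors.

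Myelin genes split into those already present and those still near background. Of the 27 list genes, 12 had enough counts against Pdgfra precursors and 21 against oligodendrocytes. A gene low in one class was tested only where the other class held it, so no count by direction is given. Mbp, which compacts the membrane, averaged 2789 ± 1398 CPM in committed precursors, 236 ± 222 in Pdgfra precursors and 6294 ± 3460 in oligodendrocytes (SD, n = 8 libraries). Its 273 CPM in endothelial cells put the Pdgfra precursors at the level of free RNA. Mag, an adhesion protein of the inner myelin layer, ranged from 311 to 2344 CPM in committed precursors (median 785) and from 2170 to 3548 in oligodendrocytes, and only rank 4 replicate 4, at 2344 CPM, reached into that range. Mag differed by 4.76 (SE 0.20, edgeR adjusted p = 2.39e-27) from Pdgfra precursors and by -1.85 (SE 0.25, adjusted p = 1.25e-06) from oligodendrocytes. Cldn11, the tight junction protein of myelin, differed by 4.71 and -1.59, and Cnp by 3.14 and -1.40.

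Among enzymes of myelin lipids, the hydroxylase Fa2h differed by 2.4 and -0.89, and the galactosyltransferase Ugt8a by 1.94 and -1.51. The sulfotransferase Gal3st1 was above both (1.27 and 0.67), but its call against oligodendrocytes ended without rank 4 replicate 1 (0.61, edgeR adjusted p = 0.0709) and with no filter on low counts (0.29, adjusted p = 0.744). Also above both were the connexin Gjc3 (1.40 and 0.99, the latter 0.55 with no filter, adjusted p = 0.101) and Nfasc, the adhesion molecule of the axon-glia junction (3.99 and 1.76), at 1478 ± 878 CPM against 83.4 ± 39.4 and 371 ± 192.

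A later group was near the level of free RNA in committed precursors. Mal, a myelin proteolipid, ranged from 0 to 512 CPM (median 25.4) against 1441 to 11040 in oligodendrocytes (median 4216), while endothelial cells averaged 353 CPM (log2 -6.33, SE 0.41, edgeR adjusted p = 9.67e-12). Rank 1 replicate 5 was the highest library and 4 libraries were at 0. Aspa (-5.73), the carbonic anhydrase Car2 (-5.57), transferrin, Trf (-5.19), Ermn (-4.69) and Mobp (-4.02) were lower too. Outside the myelin list the widest gaps were Il33 (-6.93), a nuclear cytokine, the receptor Gpr37 (-5.01), Gprc5b (-4.67), Efnb3 (-4.38) and Ndrg1 (-4.31). Mobp averaged 115 ± 186 CPM in committed precursors and 75.2 in endothelial cells.

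**Figure D3:**
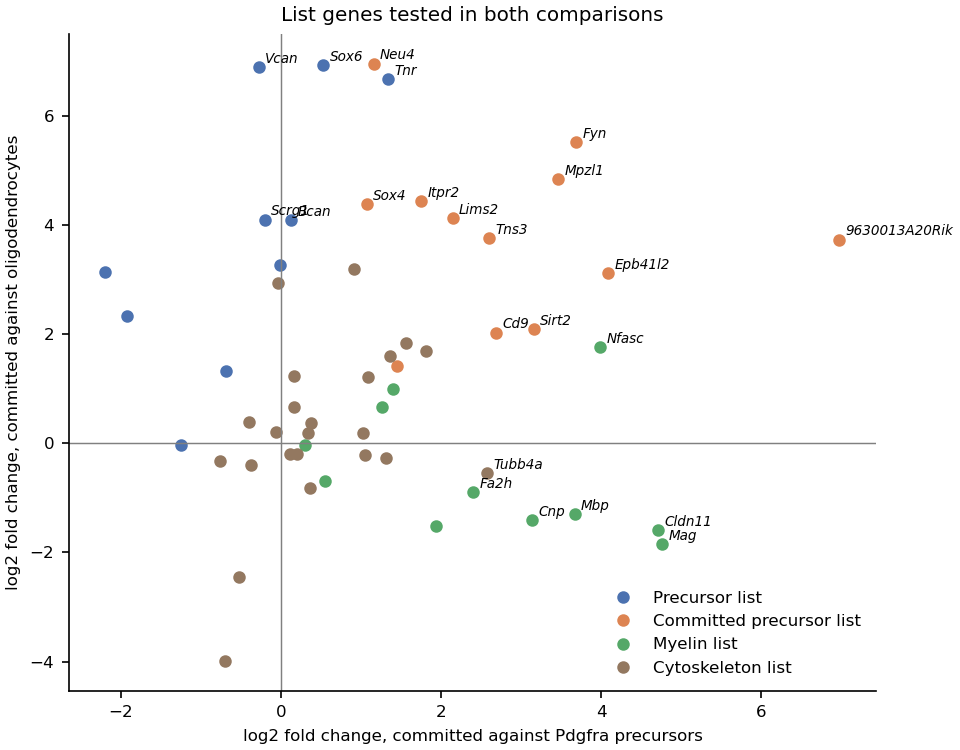
Log2 difference of committed precursors from Pdgfra precursors (horizontal) against that from oligodendrocytes (vertical) for 10 precursor, 12 committed precursor, 11 myelin and 23 cytoskeleton genes tested in both; both axes use the same committed precursor libraries. Of the genes plotted, committed precursor genes lie in the upper right, most myelin genes in the lower right, and the cytoskeleton genes nearer the centre. A gene low in one class was plotted only where another class held it, so these positions give no direction for a list.

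Transcription regulators differed in both directions. Sox10, which drives the whole lineage, did not pass in either comparison and averaged 381 ± 146 CPM in committed precursors, 420 ± 153 in Pdgfra precursors and 262 ± 65.5 in oligodendrocytes (SD, n = 8). Of 17 regulators tested against Pdgfra precursors, 5 were higher (13% of all genes were) and 7 lower (13.5% of all genes), with a list median of -0.04. Nkx2-2 (1.28), Sox4 (1.08), Sox8 (1.09) and Zeb2 (1.51) were among those higher. Hes5 and Hes1, effectors of Notch signalling, were lower by 4.04 and 2.23 log2 units, and Olig1 (-1.25), Olig2 (-0.68) and Id2 (-2.15), an inhibitor of differentiation, were lower as well, as were Nfia and Nfib. Of these, Nfib was -0.76 without rank 4 replicate 5 (edgeR adjusted p = 0.0703), Nfia was -0.50 without rank 1 replicate 2 (adjusted p = 0.127), -0.53 without rank 4 replicate 1 (0.142), -0.66 without rank 4 replicate 3 (0.0726) and -0.60 without rank 4 replicate 5 (0.0883), and Olig2 was -0.47 at 1500 UMIs a cell (adjusted p = 0.124). Against oligodendrocytes, Sox4 (4.38), Sox6, Sox8 (1.74) and Olig2 (1.32) were higher and Nkx6-2 (-3.14) lower, of 9 tested, where 17.6% and 22.7% of all genes were. Myrf, the activator of myelin genes, had a UMI in 36 of 161 committed precursors (22.4%), in 4.62% of Pdgfra precursors, in 20.3% of oligodendrocytes and in 0.300% of endothelial cells. Tcf7l2, an effector of Wnt signalling, had one in 58 of 161 (36.0%), against 9.91%, 2.92% and 3.78%; neither fit tested it between classes because too few counts passed the filter.

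Of 26 cytoskeletal genes tested against Pdgfra precursors 10 were higher and 3 lower (median 0.27), where 13% and 13.5% of all genes were. Of 25 tested against oligodendrocytes 9 were higher and 5 lower (median 0.18), where 17.6% and 22.7% of all genes were, so the lower share was near that of all genes. The tubulin Tuba1a averaged 4703 ± 2039 CPM against 1599 ± 682 in Pdgfra precursors and 1145 ± 463 in oligodendrocytes (1.57 and 1.84). Tubb2b (0.92 and 3.2) and the microtubule-associated Map1b (1.82 and 1.69) were above both neighbours. Tubb4a, a tubulin of myelinating cells, was above Pdgfra precursors (2.58). The calls of Stmn1 against Pdgfra precursors and of Tubb4a against oligodendrocytes, both counted above as lower, ended in most alternatives; Stmn1 was -0.30 without rank 4 replicate 5 (edgeR adjusted p = 0.334) and Tubb4a -0.35 without rank 4 replicate 3 (adjusted p = 0.222). Stmn1, which destabilises microtubules, was below oligodendrocytes (-2.45), and the actin-severing Gsn was below oligodendrocytes (-3.99).

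Among receptors and adhesion molecules, 6 of 17 were higher and 6 lower than in Pdgfra precursors (median 0.24), beside 13% and 13.5% of all genes and a median of -0.03. Of the 6 higher, Cadm1 (0.43, edgeR adjusted p = 0.139) and Sema5a (0.68, 0.105) did not pass without rank 4 replicate 5, nor Sema5a without rank 4 replicate 4 (0.70, 0.0717). Against oligodendrocytes 13 of the 41 list genes had enough counts, and since genes low in both classes dropped out no count by direction is given. Of the genes called higher there, Sema4d did not pass without rank 1 replicate 5 (0.53, edgeR adjusted p = 0.145) or rank 4 replicate 4 (0.52, 0.0945). With no filter on low counts neither Sema4d (0.22), Cadm1 (0.29) nor Cntn1 (0.62) passed. The AMPA receptor subunit Gria2 was above oligodendrocytes (2.4), and its difference of 0.45 from Pdgfra precursors did not pass without rank 4 replicate 1 (0.40, edgeR adjusted p = 0.0574) or without rank 4 replicate 2 (0.39, adjusted p = 0.0625), while Gria3 (-1.21), the NMDA receptor subunit Grin3a (-1.65) and the adenosine receptor Adora1 (-3.05) were below Pdgfra precursors. The semaphorin receptor Plxnb3 (2.54 and 1.92) and the adhesion molecule Ncam1 (1.46 and 1.50) were above both. Lpar1, a lysophosphatidic acid receptor, and Gpr37 were below oligodendrocytes. Of 5 cholesterol and fatty acid genes tested, Scd2 (0.51) and Acsl3 (1.45) were above Pdgfra precursors (list median 0.51), where 13% of all genes were, but Scd2 was 0.17 with no filter on low counts (edgeR adjusted p = 0.71) and 0.34 at 1500 UMIs a cell (0.235). Of 6 tested against oligodendrocytes 4 were lower (list median -0.77), where 22.7% of all genes were, among them Fdps (-1.29), Msmo1 (-0.89) and Scd2 (-1.34). The other, Hmgcs1 (-0.65), did not pass without any 1 of rank 1 replicates 1 and 2 and rank 4 replicates 1, 2, 3 and 5, at -0.38 without rank 4 replicate 2 (edgeR adjusted p = 0.254).

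All 5 immediate early genes with enough counts, Fos, Jun, Junb, Jund and Nr4a1, were lower than in Pdgfra precursors (list median -0.96), where 13.5% of all genes were. Jun did not pass at 1500 UMIs a cell (-0.56, edgeR adjusted p = 0.0575), and neither Jun (adjusted p = 0.188) nor Junb (0.0709) passed without the library block. Fos averaged 61.0 ± 49.8 CPM against 552 ± 523 (log2 -3.21, SE 0.30, edgeR adjusted p = 1.15e-13), with 1008 CPM in endothelial cells. Such genes are induced by papain digestion as well as by cell activity, and the part of the digestion in these values was not tested. Sgk1, a kinase induced by glucocorticoids, was above Pdgfra precursors (1.55). It was the only one of 3 glucocorticoid-responsive genes tested there that passed, where 26.5% of all genes did. Against oligodendrocytes both tested, Sgk1 (-0.81) and Mt1 (-0.57), were lower, where 22.7% of all genes were. Neither call held in every alternative. Without rank 4 replicate 3 Sgk1 was -0.53 (edgeR adjusted p = 0.0531) and Mt1 -0.37 (0.116), and without rank 4 replicate 5 they were -0.67 (0.0517) and -0.43 (0.106). Of 9 heat shock genes tested against Pdgfra precursors 1 was higher and 0 lower, where 13% and 13.5% of all genes were. The 1 was the mitochondrial chaperonin Hspd1 (0.61), which did not pass without rank 1 replicate 5 (0.51, edgeR adjusted p = 0.102) or rank 4 replicate 1 (0.54, adjusted p = 0.0690). Of 8 tested against oligodendrocytes Hspa5 and Hspe1 were higher, and Hspa8, Hsp90aa1 and Hsp90ab1 lower, where 17.6% and 22.7% of all genes were. With no filter on low counts Hspa5 (0.47, adjusted p = 0.233) and Hspe1 (0.28, adjusted p = 0.709) did not pass, and Hspa8 did not pass without rank 1 replicate 2 or rank 4 replicate 2, 3 or 5. Hsp90ab1 did not pass with at least 1000 genes a cell and at most 10% mitochondrial counts (-0.45, adjusted p = 0.126) or without the library block (adjusted p = 0.329).

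Committed precursors were also split by Bmp4. Of the 46 cells with 0 Bmp4 UMIs, all of which then held Enpp6 by the rule, and the 115 that had one, the 7 libraries that held at least 3 of each had 42 and 82, and these were compared. This split was made after the number of cells in each subset was known, and it is not independent of the rule: a cell without Bmp4 had to reach 4 UMIs from Enpp6, Gpr17 and Bcas1 alone, which 76 of the 115 cells with Bmp4 also did while holding Enpp6. Of 126 genes tested 17 passed (13.5%), 10 higher in the cells without Bmp4 (7.94%) and 7 lower (5.56%). In rank 1 libraries 1, 4 and 5, the cells without Bmp4 held 1955, 4647 and 3429 CPM of Mag and those with it 432, 211 and 310. In rank 4 libraries 1, 2, 4 and 5, they held 621, 1891, 3454 and 3386 CPM without Bmp4 and 267, 537, 372 and 1066 with it. Mag was higher without Bmp4 in 7 of 7 libraries (log2 2.51, SE 0.34, edgeR adjusted p = 2.4e-06). With the 57 such cells of the 7 libraries in place of the 82, 15 of 87 genes passed, among them all 13 of the earlier calls still tested, and Mag differed by 2.33 (adjusted p = 4.27e-07), Cldn11 by 1.85 and Mbp by 1.32. Bcas1 had a UMI in 71.7% of cells without Bmp4 and in 86.8% of the 76.

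Among other myelin genes, Cldn11 (1.97) and Mbp (1.56) were higher without Bmp4 in 7 of 7 libraries and Nfasc (1.21) in 6 of 7. These are 4 of the 7 myelin genes tested, with 0 lower, where 7.94% of all genes were higher and 5.56% lower. The list median was 1.21, against -0.14 over all genes. App, the amyloid precursor protein (1.57), Malat1 (0.93), the tetraspanin Cd81 (1.00), Aplp1, the protease Ctsl and Frmd4a were the others that were higher. Tmsb4x, which binds free actin (-1.14), Tuba1a (-0.96), S100a1 (-1.24), S100a16 (-1.26), the lipid carrier Apoe (-1.23), Pdcd4 (-0.93) and Lims2 (-1.29, with the overlap with Gpr17 named above) were lower. None of the 4 precursor genes tested passed. Of 13 of these genes followed through the alternatives, only Mag passed in each. Without rank 1 replicate 4, Tmsb4x (-0.91), Tuba1a (-0.78), S100a1 (-0.81), S100a16 (-0.92), Apoe (-0.84), Lims2 (-1.09), Nfasc (1.23) and Frmd4a (1.23) kept their direction but did not pass. Without rank 4 replicate 4 it was Tmsb4x (-1.07), Tuba1a (-0.92), S100a1 (-1.03), S100a16 (-1.04), Apoe (-1.33) and Lims2 (-1.0). Without rank 1 replicate 5 it was Malat1 (0.78), Nfasc (0.90), Frmd4a (1.07), Tuba1a (-0.94) and Apoe (-1.40), without rank 1 replicate 1 S100a16 (-0.98) and Tuba1a (-0.75), and without rank 4 replicate 2 Tmsb4x (-0.85).

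Depth moved with the split over the pooled cells of all 10 libraries, but not in each library. The pooled median was 1554 UMIs in cells without Bmp4 and 1978 in those with it. The order was the other way in rank 4 replicate 5, which was in the fit (2922 without, 2032 with). It was also the other way in rank 1 replicate 3 and rank 4 replicate 3, which were not in the fit. Malat1, a nuclear RNA whose share rises when cytoplasm is lost, took 115900 ± 44100 CPM against 61170 ± 8951 (SD, n = 7 libraries). The part of depth or of lost cytoplasm in the other differences was not tested. Cells without Bmp4 were 10.0 to 30.0% of committed precursors in the libraries of the earlier software version and 28.6 to 66.7% in those of the later one. By rank they were 27.9% ± 17.4 and 29.7% ± 21.6 (SD, n = 5 each). Bmp4 helped to choose the cells, so these shares describe the cells taken and no test is read from them. Without the library block 3 genes passed. Without rank 1 replicate 5 the number was 5, without rank 1 replicate 4 it was 10, and without rank 4 replicate 1 it was 27.

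**Figure D4:**
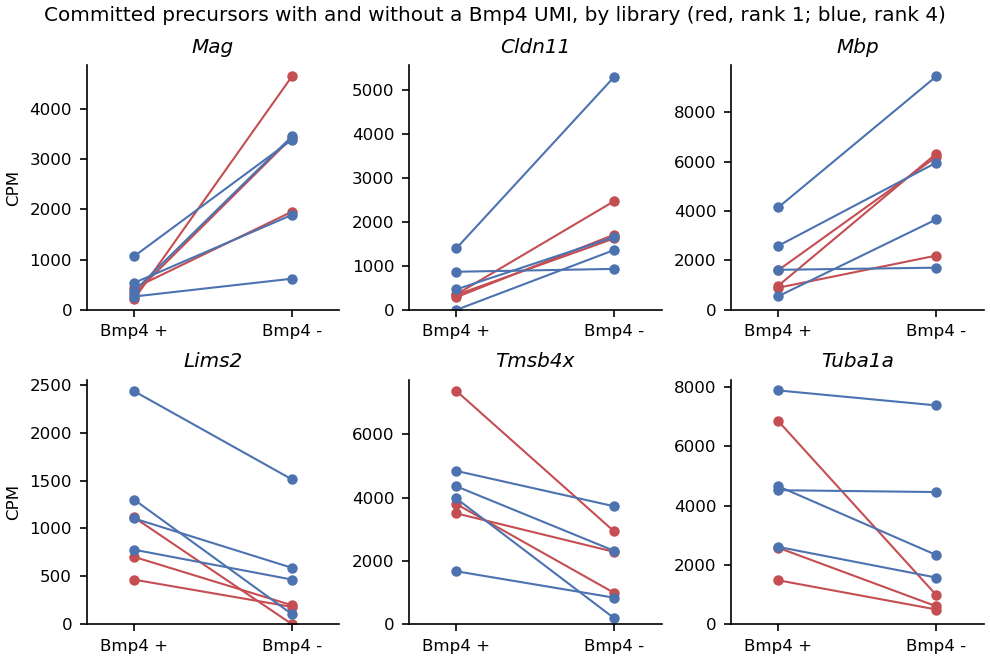
CPM of 6 genes in committed precursors with (left) and without (right) a Bmp4 UMI, each line being 1 of 7 libraries (red, rank 1; blue, rank 4). Mag, Cldn11 and Mbp are higher without Bmp4 in 7 of 7 libraries, and Lims2, Tmsb4x and Tuba1a lower in 7 of 7.

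Rank was not linked to a gene that passed the test within committed precursors. With 3 rank 1 and 5 rank 4 libraries, 0 of 648 genes passed (0%) in edgeR with the software version as covariate, 7 had an unadjusted p under 0.05 (1.08%), and DESeq2 also called 0, with 5 unadjusted. The smallest unadjusted p was that of Arf4, a small GTPase of vesicle traffic. It was 94.1, 162 and 164 CPM in rank 1 libraries 1, 2 and 5 and 214, 572, 394, 402 and 432 CPM in rank 4 libraries 1 to 5. These values did not overlap, but the difference did not pass (log2, rank 1 minus rank 4, -1.45, SE 0.47, edgeR adjusted p = 0.989), and in the 2 rank 1 libraries with fewer cells Arf4 was 175 and 288 CPM. Kcnq1ot1 had the smallest p among genes with more in rank 1 (1.05, SE 0.44, adjusted p = 0.989). Basp1, Luc7l2, Lars2 and Srsf3 followed in that direction, and Ptgds, Cct7, Pdcd4 and Slc22a23 in the other, with the same adjusted p.

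For the genes that mark the state the estimates of the rank difference were 0.22 (SE 0.41) for Fyn, 0.08 (SE 0.39) for Neu4, -0.27 (SE 0.43) for Mag and -0.90 (SE 0.51) for Mbp, with an edgeR adjusted p of 0.989 for each. None of the 15 committed precursor genes tested passed (list median -0.26), nor any of 11 precursor genes (0.18) or 10 myelin genes (-0.19), against a median of -0.01 over all genes. The rank fit left out no genes of the rule. The committed precursor list thus included Gpr17 and the myelin list Bcas1, which chose the cells. On simulated counts with the same 648 genes, this comparison recovered 35% of 100 genes changed by 1 log2 unit and 92% of 100 changed by 2. The changed genes were drawn from those at or above the median count, and all genes shared 1 dispersion. These percentages therefore do not hold for genes with fewer counts. Even so, most changes of 1 log2 unit were not detectable.

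A difference between ranks that was unlike the one in Pdgfra precursors was tested as an interaction, and 3 of 3697 genes passed (0.0811%). Ptgds, prostaglandin D2 synthase, an abundant transcript of oligodendrocytes, was 627, 215 and 696 CPM in committed precursors of rank 1 libraries 1, 2 and 5. In rank 4 libraries 1 to 5 it was 1498, 572, 1271, 1072 and 2438 CPM. In Pdgfra precursors of the same libraries it was 246, 122 and 404 CPM in rank 1 and 224, 74.2, 93.8, 285 and 297 in rank 4. The committed precursors of rank 4 thus stood higher, with overlap at replicate 2, and the Pdgfra precursors overlapped throughout (log2 interaction -1.92, SE 0.38, edgeR adjusted p = 0.00131). The rank 1 libraries left out of the fit, 3 and 4, held 788 and 1069 CPM in committed precursors. Oligodendrocytes averaged 8309 CPM and endothelial cells 179. The call ended without rank 1 replicate 5 (adjusted p = 0.173) and in DESeq2 (adjusted p = 0.135), and over all alternatives the estimate ran from -2.21 to -1.76.

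Hba-a1 and Hba-a2, the alpha chains of haemoglobin, were the others (-2.24 and -2.49, edgeR adjusted p = 0.0229 and 0.0142). In rank 4 replicate 1, committed precursors held 6321 CPM of Hba-a1, against 0 to 376 in the other 9 libraries. In that library 1 cell of 15 held 1032 of the 1111 haemoglobin-list UMIs. Without it Hba-a1 reversed to 0.32 (adjusted p = 0.999) and Hba-a2 had too few counts to be tested. Beyond these 3, the smallest p in the interaction belonged to Prrc2a (-4.06, adjusted p = 0.0975) and Cldn11 (-1.54, 0.434) in one direction and to Mid1ip1, Tceal3, Rasgef1a, Thoc7 and Mal in the other (0.696 for each). Hba-a1 also passed against Pdgfra precursors (1.32), but not in DESeq2 (0.04, adjusted p = 0.977), and without rank 4 replicate 1 it had too few counts for that test.

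**Figure D5:**
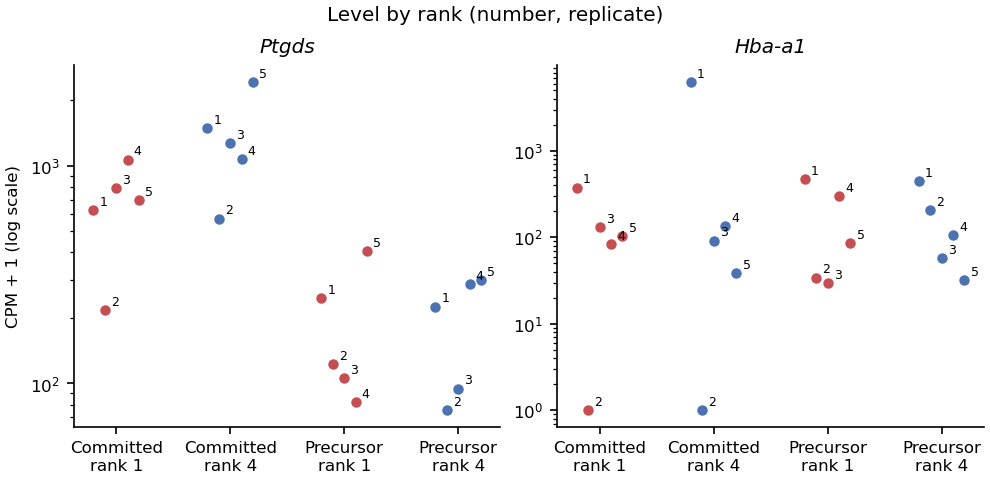
CPM + 1 (log scale) of Ptgds (left) and Hba-a1 (right) in committed and Pdgfra precursors of each library, by rank and numbered by replicate. In committed precursors Ptgds reaches 2438 CPM in rank 4 replicate 5 and is lowest in rank 1 replicate 2, at 215 CPM, and Hba-a1 stands at 6321 CPM in rank 4 replicate 1.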

How the data were processed

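Droplet single-cell RNA sequencing of the medial prefrontal cortex gave 10 libraries, 5 of rank 1 and 5 of rank 4 mice. The deposited files hold UMI counts per gene and barcode, made by the authors with Cell Ranger 4.0.0 on mm10 per the submitters' processing notes. Per the file headers, replicates 1 to 3 of both ranks carry version 3.1.0 and replicates 4 and 5 version 4.0.0, so 30406 genes in both gene lists were used; strand and intron settings are not given in the sources used here. The counts were otherwise taken as deposited. The members, gene lists and tests were chosen with earlier results of these data known.

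Pdgfra precursors (1473 cells) had at least 2 Pdgfra UMIs, oligodendrocytes (1096) at least 2 of Opalin and Mog, and endothelial cells (3334) at least 2 of Cldn5, each with 0 Enpp6 and Bmp4 UMIs and the same cell filter. Pdgfra precursors also had to hold 0 UMIs of the fibroblast genes Dcn and Col1a1. Doublets were called with Scrublet in scanpy 1.11.5 at an expected rate of 0.06, with a threshold of 0.245 in the 2 libraries where its own called none, and were kept. Counts were summed per library and class, scaled with TMM, filtered with filterByExpr and tested with edgeR 4.0.16 (quasi-likelihood) in R 4.3.3; the version was a covariate in the rank comparison and the library a block between classes. Fits between classes and ranks used the 8 libraries with at least 10 committed precursors, and the Bmp4 split the 7 with at least 3 cells of each subset, among them rank 1 replicate 4 with 8 committed precursors. DESeq2 1.42.0 was the alternative. Printed levels are CPM over all shared genes. Shares were tested by exact permutation in scipy 1.17.1; with 5 against 5 libraries the smallest p is 0.00794. The fits were tested on simulated data.

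Beyond the rule genes and list members, named genes were, for each class comparison, the 10 largest changes in each direction that passed, went the same way in every library and averaged at least 50 CPM in the higher class, the 12 highest above both classes, and in the other fits the 5 smallest p in each direction. Genes that passed in the Bmp4 split beyond those 5 were named after their values were seen. The planned comparison of cells with Enpp6 alone and Bmp4 alone was not run, since fewer than 4 libraries held 3 cells of each, and a split by Bmp4 took its place. Replicate numbers were taken as pairs in an alternative fit: deviations from the rank means of same-numbered libraries correlated at 0.543, 0.482, 0.617, 0.552 and 0.516 over 463 genes, and some differently numbered libraries of 1 software version reached 0.585, 0.532 and 0.432, while rank 1 replicate 1 stood at -0.209 with rank 4 replicate 2. The labels give no litter or day, so what the numbers share was not tested. Alternatives left out each library, doublets, the filter or the block, thinned cells to 1500 UMIs, or asked for 1000 genes and at most 10% mitochondrial counts. 1 myelin gene is counted in the lists but not reported here.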

Additional observations from a re-analysis of the deposited data

Results flagged for a closer look

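Within a rank, a library was marked where its gap to the nearest other library, divided by the range of the 5, passed Dixon's critical value of 0.71. Of 40 groups of 5 libraries examined 5 had such a library, where chance marks about 1 in 20. The committed precursor share of the lineage was 12.95% in rank 4 replicate 2, and the next rank 4 library was at 5.79%. In committed precursors, summed astrocyte markers were 3808 CPM in rank 1 replicate 3 (next 1349), microglial markers 2956 CPM in rank 4 replicate 1 (next 863), pericyte and muscle markers 200.9 CPM in rank 4 replicate 4 (next 38.9, with 3 UMIs in all), and haemoglobin genes with Alas2 21610 CPM in rank 4 replicate 1 (next 670). In each of the latter 4 libraries 1 cell held most of these UMIs.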

How the results depend on the processing

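The rank difference in the share of kept barcodes (-0.0413 points) ran from -0.108 to 0.104 with each library left out, turning to 0.0106 without rank 1 replicate 1 and 0.104 without rank 4 replicate 2, and was 0.143 within version 4.0.0. That in the lineage share (-0.238 points) ran from -1.15 to 1.26, turning to 0.520, 0.0206 and 0.152 without rank 1 replicates 1, 4 and 5 and to 1.26 without rank 4 replicate 2; its exact test did not pass in any setting. With no filter on low counts 1636 genes passed against Pdgfra precursors, 1495 against oligodendrocytes, 1 in the interaction and 26 in the Bmp4 split. Thinned to 1500 UMIs, 141 of 503 and 119 of 284 genes passed; all 181 and 122 of the main calls still tested kept their sign and 136 and 107 passed. With the stricter cell filter 289 of 1058 and 135 of 362 passed. With each library left out the counts ran from 448 to 546 against Pdgfra precursors, 301 to 458 against oligodendrocytes, 0 to 4 in the interaction (1 without rank 1 replicate 1, 0 without rank 1 replicate 5) and 5 to 27 in the Bmp4 split (10 without rank 1 replicate 4). DESeq2 called 0 in the interaction, where Hba-a2 turned to 0.42, and Hba-a1 ran from -2.83 to 0.32 with each library left out, turning only without rank 4 replicate 1; beyond the library's own cells and the number of genes tested, the causes were not tested. Without the library block 365 genes passed against Pdgfra precursors, 290 against oligodendrocytes and 3 in the Bmp4 split. With the replicate block the rank comparison called 0 genes, 45 with an unadjusted p under 0.05, and the paired permutation p was 0.875 for both shares; it changed no call in these comparisons. All 10 libraries with that block also gave 0. No named gene reversed in the comparisons with Pdgfra precursors, oligodendrocytes or between ranks, or in the Bmp4 split. At least 20 cells per library left 1 library a rank and was not run. The Bmp4 split and its alternatives, the fits with all 10 libraries and within a version were chosen after seeing the data.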
